A study of Homo sapiens with 6 samples.

Results

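The large ribosomal subunit is put together by assembly factors, proteins that bind the ribosomal precursor for a time and are not part of the finished ribosome. The genes described here are 58 such factors of the nucleolus and nucleus, named by symbol as nucleolar and nuclear factors of large-subunit assembly and export, and found in the deposited count table through their Ensembl identifiers. All 58 were matched, of 60564 gene rows in the table, and all 58 were among the 17006 genes with enough counts to be tested. The cells were A2780, an established line from a human ovarian carcinoma, and RNA-seq was made from 3 samples titled GPT2si and 3 titled GPT2sinc. The labels give no time, dose or reagent and do not spell out si and sinc. GPT2, the mitochondrial alanine aminotransferase named in the series title, was at 93.8, 94.3 and 96.9 CPM (counts scaled to a common library size) in the GPT2si libraries, against 236, 230 and 219 CPM in the GPT2sinc libraries, so the labels and the targeted gene go the same way.

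Assembly of the large subunit starts in the nucleolus, where RNA polymerase I makes a long ribosomal RNA precursor. Scaffold proteins, DEAD-box helicases and methyltransferases fold, cut and modify it, the 5S ribonucleoprotein is docked with the help of RRS1 and RPF2, and AAA ATPases then strip factors from the particle. NMD3 takes it through the nuclear pore, and GTPases release the last factors. These genes are broadly active in growing cells, and many are known targets of the transcription factor MYC. In a bulk measurement, a change in RNA per cell and a change in the make-up of the cell population cannot be told apart.

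Several facts about the libraries bear on all values below. Total counts ran from 41931162 to 50882329 in the GPT2si libraries and from 43351984 to 45508530 in the GPT2sinc libraries. The library GPT2si 2 stood apart: its median absolute deviation from the 6-library mean over all tested genes was 0.26 on the log2 scale, against 0.10 to 0.19 in the other 5. Across 16825 tested genes its deviation went with the GC content of the transcripts (Pearson r = 0.43 across genes), where the other 5 libraries lay between −0.24 and 0.02. Of the cell type markers, the keratin genes KRT8 and KRT18 were expressed, at 35.3 to 42.9 and 27.02 to 35.4 CPM in the GPT2si libraries, against 31.0 to 32.2 and 24.1 to 25.5 CPM in the GPT2sinc libraries. EPCAM lay between 1.54 and 2.25 CPM and CDH1 did not exceed 0.437 CPM. The ovarian cancer markers PAX8, WT1, MUC16 and ESR1 lay between 0 and 0.351 CPM in every library, and WT1 and ESR1 had 0 counts throughout. Of the markers of other cell types, the leukocyte and endothelial genes PTPRC, CD3E, PECAM1, VWF and CDH5 did not exceed 0.184 CPM in any library. CD68 lay between 3.91 and 8.11 CPM and COL1A1, a collagen gene used as a fibroblast marker, between 112 and 131 CPM over the 6 libraries; DCN lay between 3.38 and 4.76 CPM and LUM did not exceed 0.327 CPM. The part of these markers in the results was not tested.

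By edgeR's quasi-likelihood test with Benjamini-Hochberg adjustment over all tested genes, 9 of the 58 assembly factors rose with GPT2si and 0 fell, at an adjusted p under 0.05. Over all 17006 genes the test called 0.576% higher and 0.841% lower, 1.42% in all, where the 9 members are 15.5% of the 58. Before adjustment, p was under 0.05 for 29 members above GPT2sinc and 0 below, where 10.3% of all genes were higher and 9.27% lower. In 32 members the 3 GPT2si libraries all lay above the 3 GPT2sinc libraries, and in 0 members all below; of all genes 14.9% were separated upward and 13.2% downward. The log2 fold change was above 0 in 55 of 58 members, compared with 48% of all genes. Its median was 0.26 over the members, and −0.01 over all tested genes. The members' log2 fold changes ran from −0.16 to 0.94. The members were chosen with earlier results of these data known, so these shares are a description only.

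**Figure D1:**
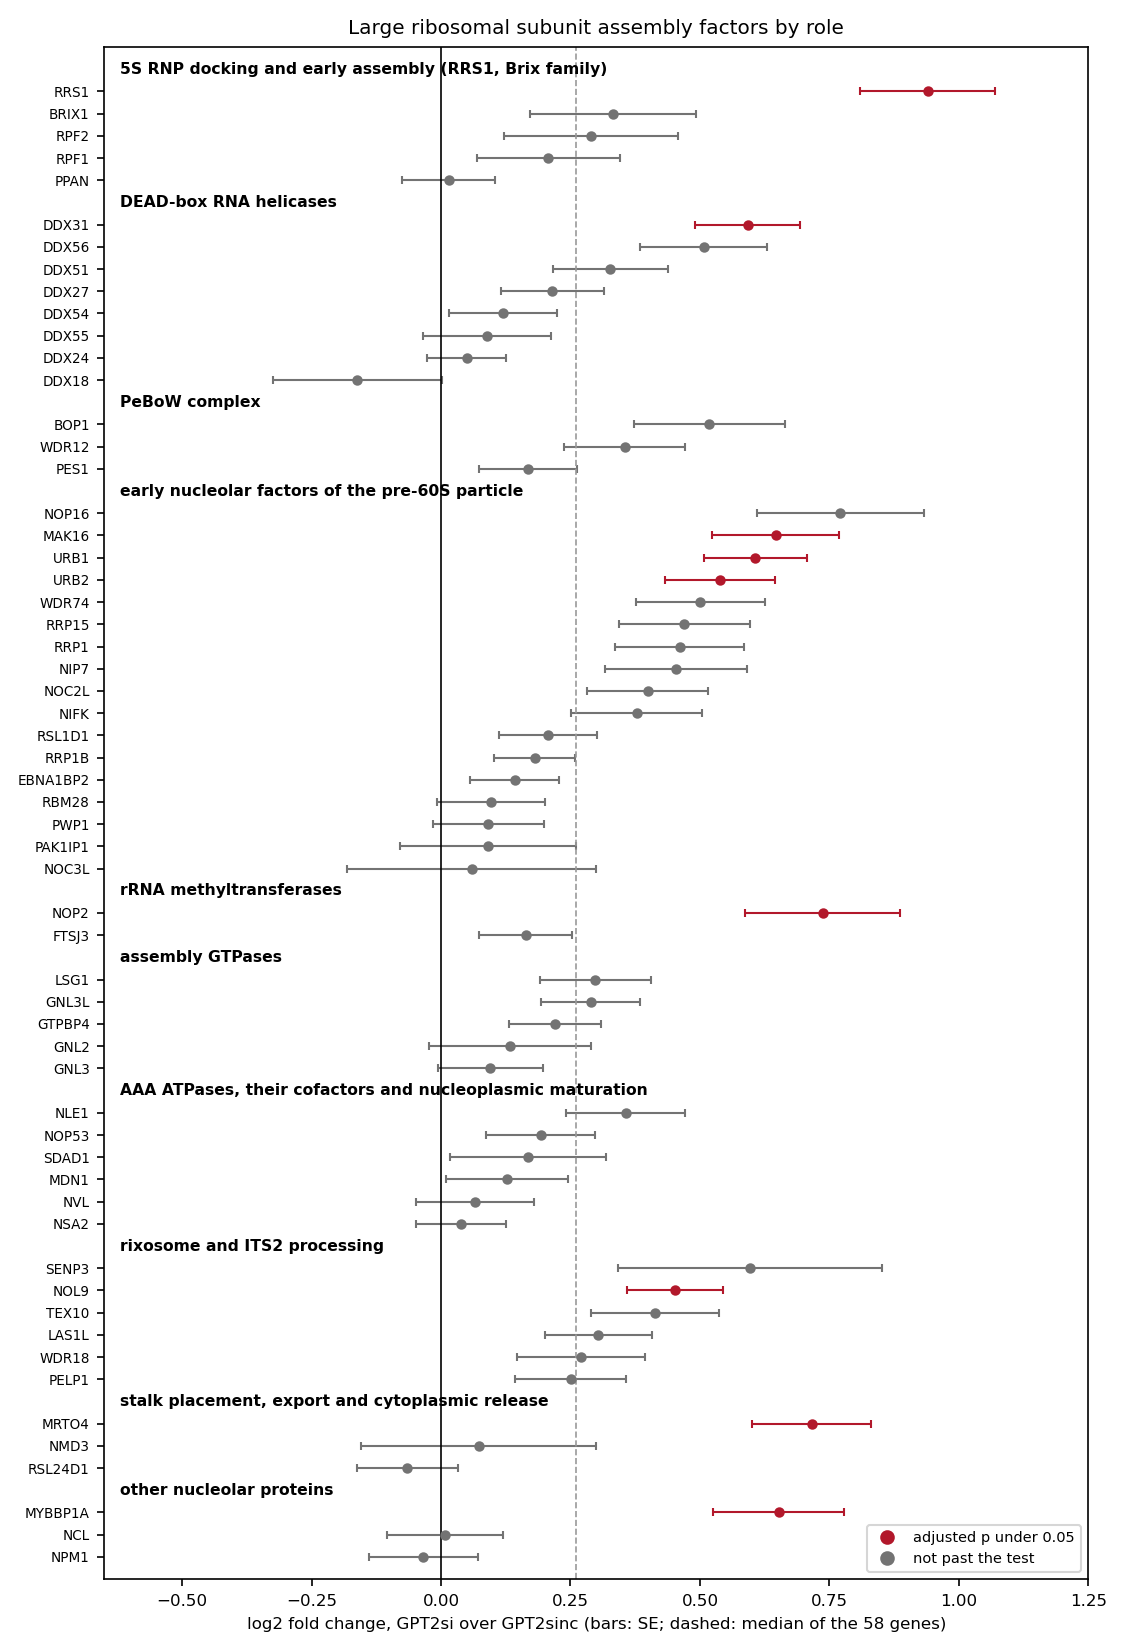
Log2 fold change, GPT2si over GPT2sinc, of each of the 58 assembly factors (points) with its standard error (bars), grouped by role; red points passed the test at an adjusted p under 0.05 and the dashed line is the members' median of 0.26. The 9 red points lie between 0.45 and 0.94 and are spread over 7 of the 10 role groups.

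The 5S ribonucleoprotein is brought to the precursor by RRS1 and RPF2, and RRS1 showed the largest log2 fold change of all 58 factors. RRS1 (ENSG00000179041, chromosome 8, 66429028 to 66430733, GRCh38 in GENCODE 29) was at 28.0, 32.5 and 26.8 CPM in GPT2si 1 to 3, against 13.0, 16.0 and 16.4 CPM in GPT2sinc 1 to 3. The lowest GPT2si library was therefore well above the highest GPT2sinc library. RRS1 rose 1.92-fold (log2 fold change 0.94, SE 0.13, adjusted p = 0.0166). Its partner RPF2 was a low-count gene, at 5.59, 4.52 and 6.26 CPM in the GPT2si libraries against 4.21, 4.86 and 4.32 CPM in the GPT2sinc libraries. The groups overlapped for RPF2 (0.29, SE 0.17, adjusted p = 0.37), and GPT2si 2 was the low library of its group. The ribosomal proteins that travel with 5S RNA were not past the test either: RPL5 was at 801 ± 56.3 against 774 ± 53.6 CPM and RPL11 at 852 ± 26.99 against 772 ± 64.2 CPM (SD, n = 3 each).

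The other proteins with a Brix domain, the RNA-binding fold that RPF2 carries, gave smaller values. BRIX1 was at 0.33 on the log2 scale (SE 0.16) and RPF1, which sits with MAK16 in the precursor in yeast, at 0.21 (SE 0.14). PPAN was at 0.01 (SE 0.09), with 84.3, 81.5 and 73.0 CPM in the GPT2si libraries against 78.3, 76.1 and 82.0 CPM in the GPT2sinc libraries. None of the 3 passed the test. PPAN shares 56.0% of its annotated exon bases with a same-strand gene, and its reads can be split with the read-through gene PPAN-P2RY11, so its value is uncertain.

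Among the early nucleolar factors, 3 of 17 rose and 0 fell, with a median log2 fold change of 0.40. In 13 of 17 the libraries separated upward. Over all tested genes 0.576% rose and 14.9% separated upward. URB1 and URB2 are large scaffold proteins that in yeast act in one of the earliest pre-60S complexes. URB1 (chromosome 21, 32311018 to 32393026) was at 87.6, 95.9 and 84.2 CPM in the GPT2si libraries against 52.7, 59.7 and 63.3 CPM in the GPT2sinc libraries. It rose by 0.61 on the log2 scale (SE 0.10, adjusted p = 0.0275). URB2 (chromosome 1, 229626234 to 229660199) was at 36.7, 38.4 and 33.7 CPM against 22.8, 25.8 and 26.2 CPM, in the same order of groups. It rose by 0.54 (SE 0.11, adjusted p = 0.0476), and for both genes GPT2sinc 1 was the lowest library.

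MAK16 (chromosome 8, 33484750 to 33501260), which in yeast forms a shell on the precursor with RPF1, RRP1 and the WDR74 homolog, was at 13.8, 13.5 and 15.0 CPM in the GPT2si libraries against 8.98, 8.46 and 9.61 CPM in the GPT2sinc libraries. It was the one risen member in which GPT2si 2 was not the highest GPT2si library (0.65, SE 0.12, adjusted p = 0.0457). Its exons overlap those of TTI2 on the opposite strand over 19.2% of their length, and no source used here states the strand setting of the counting. Its shell partners did not pass: WDR74 was at 0.50 (SE 0.12, adjusted p = 0.0825) and RRP1 at 0.46 (SE 0.12, adjusted p = 0.10). RRP1B, the vertebrate paralog of RRP1, was at 0.18 (SE 0.08); the difference between the paralogs was not tested.

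NOP16, a nucleolar protein of the early particle, had the second largest log2 fold change of the 58 and lay just outside the threshold. It was at 46.1, 53.4 and 39.1 CPM in the GPT2si libraries against 21.4, 28.7 and 31.2 CPM in the GPT2sinc libraries. Its libraries did not overlap, but they spread widely (0.77, SE 0.16, adjusted p = 0.0557). The members just inside the threshold, NOP2 and NOL9, both had an adjusted p of 0.0499, so the line between 9 and 10 risen members rests on small differences. Of the remaining early factors, RRP15 was at 0.47 (SE 0.13), NIP7 at 0.45 (SE 0.14), NOC2L at 0.40 (SE 0.12) and NIFK, the partner of the proliferation antigen Ki-67, at 0.38 (SE 0.13). RSL1D1, EBNA1BP2, RBM28, PWP1, PAK1IP1 and NOC3L lay between 0.06 for NOC3L and 0.21 for RSL1D1. NOC3L, at 6.86, 5.41 and 9.505 CPM against 9.07, 6.16 and 5.70 CPM, overlapped fully between the groups.

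NOP2, the methyltransferase that adds a carbon-5 cytosine methyl group to large-subunit ribosomal RNA, rose, and the other methyltransferase FTSJ3 did not pass. NOP2 (chromosome 12, 6556863 to 6568691) was at 107, 139 and 101 CPM in the GPT2si libraries, against 56.5, 74.5 and 76.7 CPM in the GPT2sinc libraries. The highest library was GPT2si 2 and the lowest GPT2sinc 1 (log2 fold change 0.74, SE 0.15). NOP2 shares 54.4% of its exon bases with the annotated same-strand gene AC006064.6 (ENSG00000285238), which held 0 counts in the GPT2si libraries and 259, 5 and 0 counts in the GPT2sinc libraries. The NOP2 counts themselves were 5363, 5417 and 4585 with GPT2si, against 2594, 3462 and 3338 with GPT2sinc. Reads of NOP2 can be split with that gene, so its value is uncertain, as for PPAN. FTSJ3, a 2′-O-ribose methyltransferase homolog, was at 155 ± 10.8 against 138 ± 9.45 CPM (0.16, SE 0.09).

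**Figure D2:**
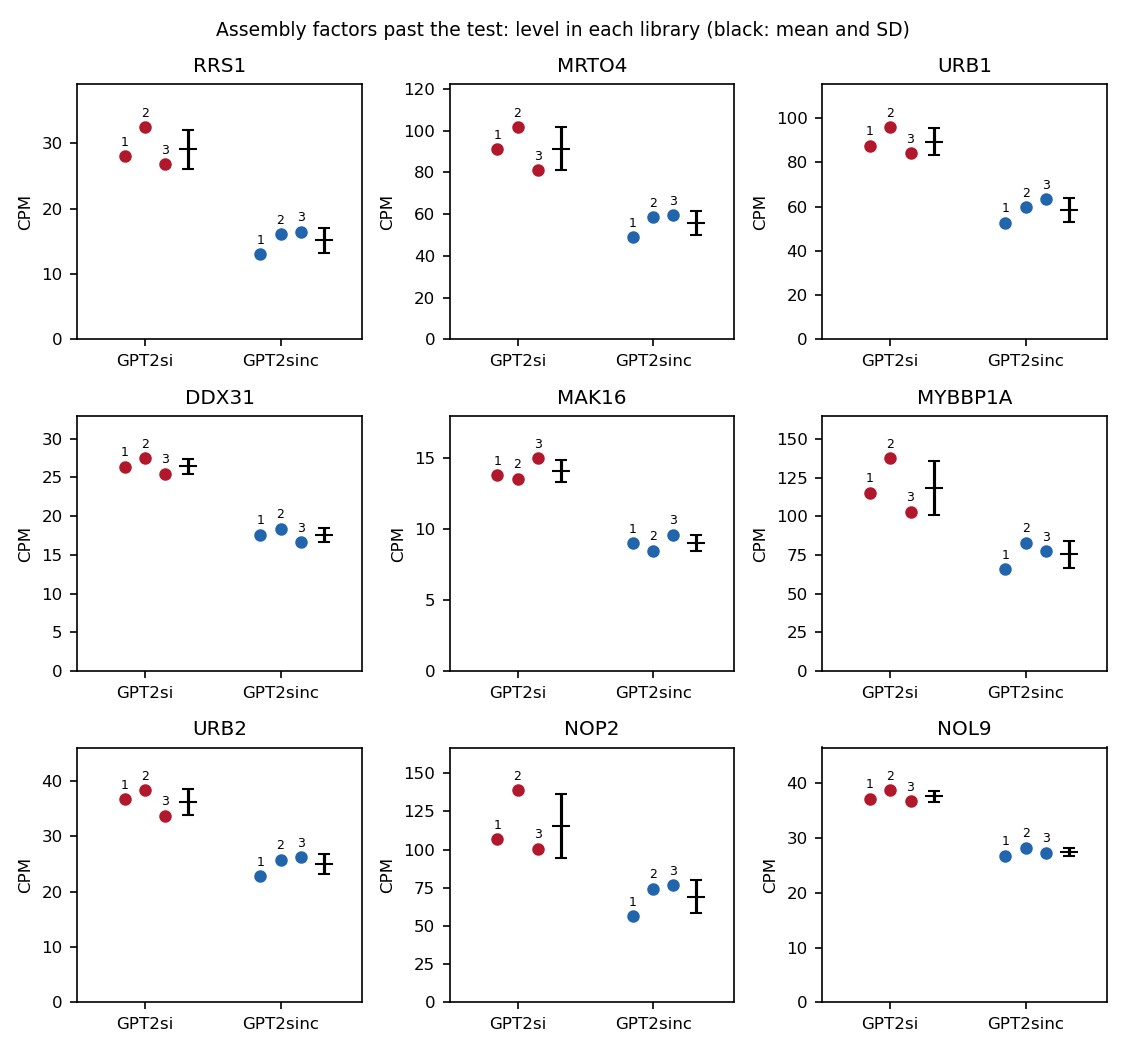
CPM of the 9 assembly factors past the test in each GPT2si library (red) and each GPT2sinc library (blue), labelled with replicate numbers, with mean and SD in black and every vertical axis from 0. In all 9 panels the lowest red point lies above the highest blue point. These 9 were picked by the test on the same libraries, so that separation is no separate support. Of all tested genes 14.9% separated upward. GPT2si 2 is the highest library in 8 of the 9 panels, and GPT2sinc 1 the lowest in 7.

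DDX31 was the one DEAD-box helicase of 8 that rose. The libraries separated upward in 4 of the 8. Of all tested genes 0.576% rose and 14.9% separated upward. DEAD-box proteins use ATP to unwind short RNA duplexes. DDX31 (chromosome 9, 132592997 to 132670401) was at 26.4, 27.5 and 25.5 CPM in the GPT2si libraries, against 17.6, 18.4 and 16.6 CPM in the GPT2sinc libraries. This was among the tightest separations of the set, with an SD of 0.985 and 0.873 CPM in the GPT2si and GPT2sinc groups (log2 fold change 0.59, SE 0.10, adjusted p = 0.0298). DDX56 was at 113, 149 and 111 CPM against 80.9, 89.7 and 91.7 CPM and did not pass (0.51, SE 0.12, adjusted p = 0.0763). DDX51, DDX27, DDX54, DDX55 and DDX24 lay between 0.05 for DDX24 and 0.33 for DDX51. DDX18, which has 5 named pseudogenes, had the lowest log2 fold change of all 58 factors, −0.16 (SE 0.16). It was at 39.7, 26.1 and 42.4 CPM in the GPT2si libraries against 40.2, 41.8 and 39.2 CPM in the GPT2sinc libraries, so that GPT2si 2 alone was low.

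The PeBoW complex of PES1, BOP1 and WDR12 is needed for processing of the large-subunit RNA, and none of its 3 genes passed. BOP1 averaged 121 ± 27.6 CPM in the GPT2si libraries, with GPT2si 2 at 153 CPM, against 84.8 ± 6.18 CPM in the GPT2sinc libraries (SD, n = 3 each; 0.52, SE 0.15, adjusted p = 0.109). WDR12 was at 44.2, 36.5 and 43.7 CPM against 29.01, 33.8 and 34.5 CPM (0.35, SE 0.12, adjusted p = 0.146). Both genes separated upward between the groups, as did 14.9% of all tested genes. GPT2si 2 was the highest GPT2si library for BOP1 and the lowest for WDR12. PES1 overlapped, at 227 ± 22.9 against 202 ± 11.7 CPM (0.17, SE 0.10).

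The rixosome, built on PELP1, TEX10 and WDR18 with the SUMO protease SENP3, works beside the LAS1L endonuclease and the NOL9 kinase that remove the internal transcribed spacer before the large-subunit RNA. Of these 6 genes, NOL9 rose and the other 5 did not pass, where 0.576% of all tested genes rose. NOL9 (chromosome 1, 6521347 to 6554535) was at 37.2, 38.8 and 36.8 CPM in the GPT2si libraries against 26.8, 28.2 and 27.3 CPM in the GPT2sinc libraries. Its rise was the smallest of the 9, with the smallest standard error (0.45, SE 0.09). TEX10 was at 0.41 (SE 0.12), LAS1L at 0.30 (SE 0.10), WDR18 at 0.27 (SE 0.12) and PELP1 at 0.25 (SE 0.11). All 6 had a log2 fold change of at least 0.25, and in 5 of 6 the libraries separated upward, where 14.9% of all tested genes did.

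SENP3 needs to be read with its neighbour. It was at 135, 174 and 125 CPM in the GPT2si libraries against 109.4, 54.6 and 123 CPM in the GPT2sinc libraries, with a log2 fold change of 0.60 (SE 0.26, adjusted p = 0.239). The low library, GPT2sinc 2, had 2536 SENP3 counts, where the other 5 had 5021 to 6804. In that same library the annotated read-through gene SENP3-EIF4A1, which shares 41.2% of the SENP3 exon bases, held 12103 counts, where the other 5 libraries held 0 to 215. Without GPT2sinc 2 the log2 fold change of SENP3 was 0.32 (adjusted p = 0.414).

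**Figure D3:**
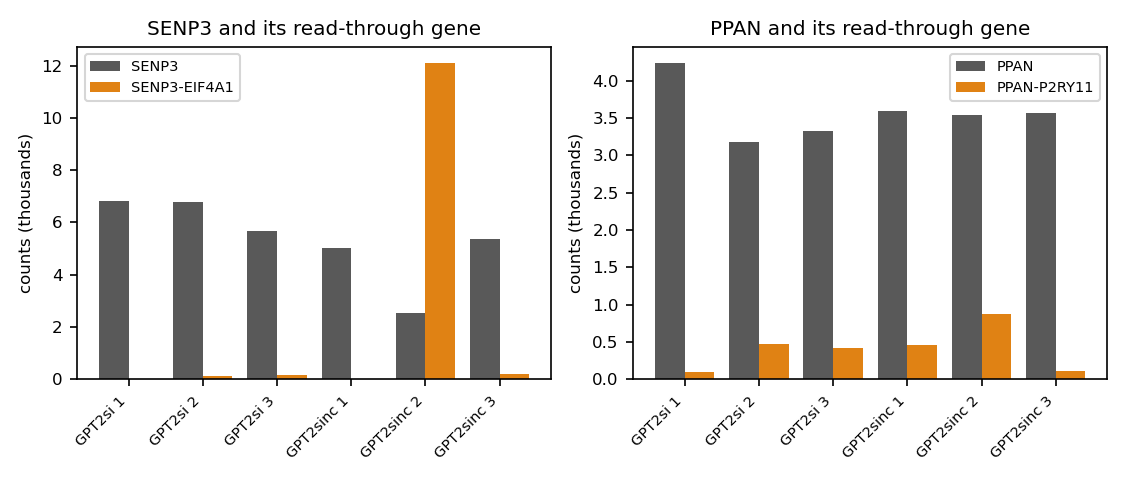
Deposited counts of SENP3 and PPAN (grey) and of their annotated read-through genes (orange) in each library. SENP3-EIF4A1 stands at 12103 counts in GPT2sinc 2, the library in which SENP3 is at its lowest of 2536; PPAN-P2RY11 lies between 101 and 878 counts.

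MRTO4 (chromosome 1, 19251539 to 19260128), a relative of the stalk protein P0 that holds the place of the stalk until the end of assembly, rose, while the export factors did not pass. MRTO4 was at 91.2, 102 and 81.1 CPM in the GPT2si libraries against 48.9, 58.5 and 59.3 CPM in the GPT2sinc libraries (0.72, SE 0.11, adjusted p = 0.0251). RPLP0, which encodes P0, was at 3750 ± 344 against 3176 ± 295 CPM (0.24, SE 0.10, adjusted p = 0.24). NMD3, the adaptor for nuclear export, was at 12.8, 9.11 and 18.7 CPM against 14.2, 12.4 and 11.9 CPM, with GPT2si 2 below, GPT2si 3 above and GPT2si 1 within the GPT2sinc libraries. RSL24D1, which precedes the ribosomal protein of RPL24 on the particle, was at 60.6 ± 4.65 against 63.4 ± 4.10 CPM, and RPL24 at 506 ± 20.3 against 469 ± 29.1 CPM. RSL24D1 has 9 named pseudogenes, and no source used here states how reads shared with such copies were counted.

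The assembly GTPases and the AAA ATPases with their cofactors had no member past the test. Of the GTPases, LSG1, which acts in the cytoplasm to release NMD3, was at 0.30 on the log2 scale (SE 0.11), and GTPBP4 at 0.22 (SE 0.09). GNL3L was at 0.29 (SE 0.10) and its paralog GNL3, known as nucleostemin, at 0.10 (SE 0.10), and GNL2 at 0.13 (SE 0.16). The ATPases MDN1 and NVL were at 0.13 (SE 0.12) and 0.06 (SE 0.11). NLE1, which MDN1 removes from the particle, was at 0.36 (SE 0.12, adjusted p = 0.141), NOP53 at 0.19, SDAD1 at 0.17 and NSA2 at 0.04. NSA2 overlaps a gene on the opposite strand over 51.2% of its exon bases. Of these 11 genes 4 separated upward and 7 overlapped between the groups, where 14.9% of all tested genes separated upward.

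Of the other nucleolar proteins MYBBP1A rose, and NPM1 and NCL, the highest of the 58 genes per kilobase, did not pass. MYBBP1A (chromosome 17, 4538897 to 4555631), a nucleolar protein that binds MYB and takes part in ribosomal RNA processing, was at 115, 137 and 103 CPM in the GPT2si libraries against 65.7, 83.0 and 77.5 CPM in the GPT2sinc libraries (0.65, SE 0.13, adjusted p = 0.047). NPM1, or nucleophosmin, was at 933, 716 and 882 CPM against 831, 894 and 868 CPM, and NCL, or nucleolin, at 826, 622 and 811 CPM against 734, 784 and 730 CPM. Their log2 fold changes were −0.03 (SE 0.11) and 0.01 (SE 0.11), and GPT2si 2 was the lowest of the 6 libraries for both. NPM1 has 45 named pseudogenes, so its count can include or lose reads of near-identical copies.

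Levels can be compared between genes only per length, here as CPM per kilobase of annotated exon averaged over the 6 libraries. That length merges the exons of all annotated transcripts of a gene, expressed or not, so values and ranks depend on the annotation. On that scale NPM1 (223), NCL (108) and NOP53 (69.9) were the highest of the 58 and RPF2 (1.26), RRP15 (1.34) and NOC3L (1.59) the lowest, around a median of 11.1. Subunits of one complex differed on this scale: PES1 was at 47.1, BOP1 at 27.8 and WDR12 at 4.06 CPM per kilobase, and WDR18 at 41.5, PELP1 at 22.9 and TEX10 at 4.58. The 9 genes that rose lay between 2.39 for MAK16 and 26.0 for MRTO4. All 58 members together took 0.590%, 0.545% and 0.573% of the counts in the GPT2si libraries, against 0.518%, 0.532% and 0.518% in the GPT2sinc libraries. Without NPM1 and NCL the shares were 0.416%, 0.420% and 0.402% against 0.353%, 0.360% and 0.359%.

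Base composition went with the members' values in single libraries, and its part in the comparison was not tested beyond the fits given here. Within the 58 members, the level in GPT2si 2 relative to the 6-library mean went with transcript GC content (Pearson r = 0.76 across genes, which share the library and are not independent). In GPT2si 3 and GPT2sinc 1 the correlation was −0.56 and −0.46. GPT2si 2 was the highest of the 6 libraries for 25 members and the lowest for 12, and GPT2sinc 1 the lowest for 34. Over the 20 members of highest GC content, 53.0% to 65.3%, the median deviation was 0.40 in GPT2si 2, against −0.29 in GPT2sinc 1. Over the 19 of lowest GC content, 35.5% to 43.9%, it was −0.13 in GPT2si 2, where GPT2si 1 and GPT2si 3 were at 0.23 and 0.26.

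Leaving out GPT2si 2 changed the members' median little, while single genes and members of low or high GC content moved in size. The members' median log2 fold change was then 0.25, and 18 members rose and 0 fell, the 9 above among them. Calls were more frequent in that fit as a whole: 2.15% of 17525 genes were higher and 2.62% lower (377 and 459 genes), compared with 98 and 143 genes with all 6 libraries. The correlation of the members' log2 fold change with GC content was 0.36 with all 6 libraries and −0.03 without GPT2si 2. The median over the 19 members of lowest GC content was 0.17 with all libraries and 0.28 without GPT2si 2, and over the 20 of highest GC content 0.38 and 0.25. TEX10, at 0.52 (SE 0.07, adjusted p = 0.00961), and WDR12, at 0.43 (SE 0.08, adjusted p = 0.0324), were among the 9 members that passed only without that library in this pair of fits. BOP1 (0.30), DDX56 (0.34), NIFK (0.47), NOP16 (0.64), RRP15 (0.50), RSL1D1 (0.28) and WDR74 (0.35) were the others.

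**Figure D4:**
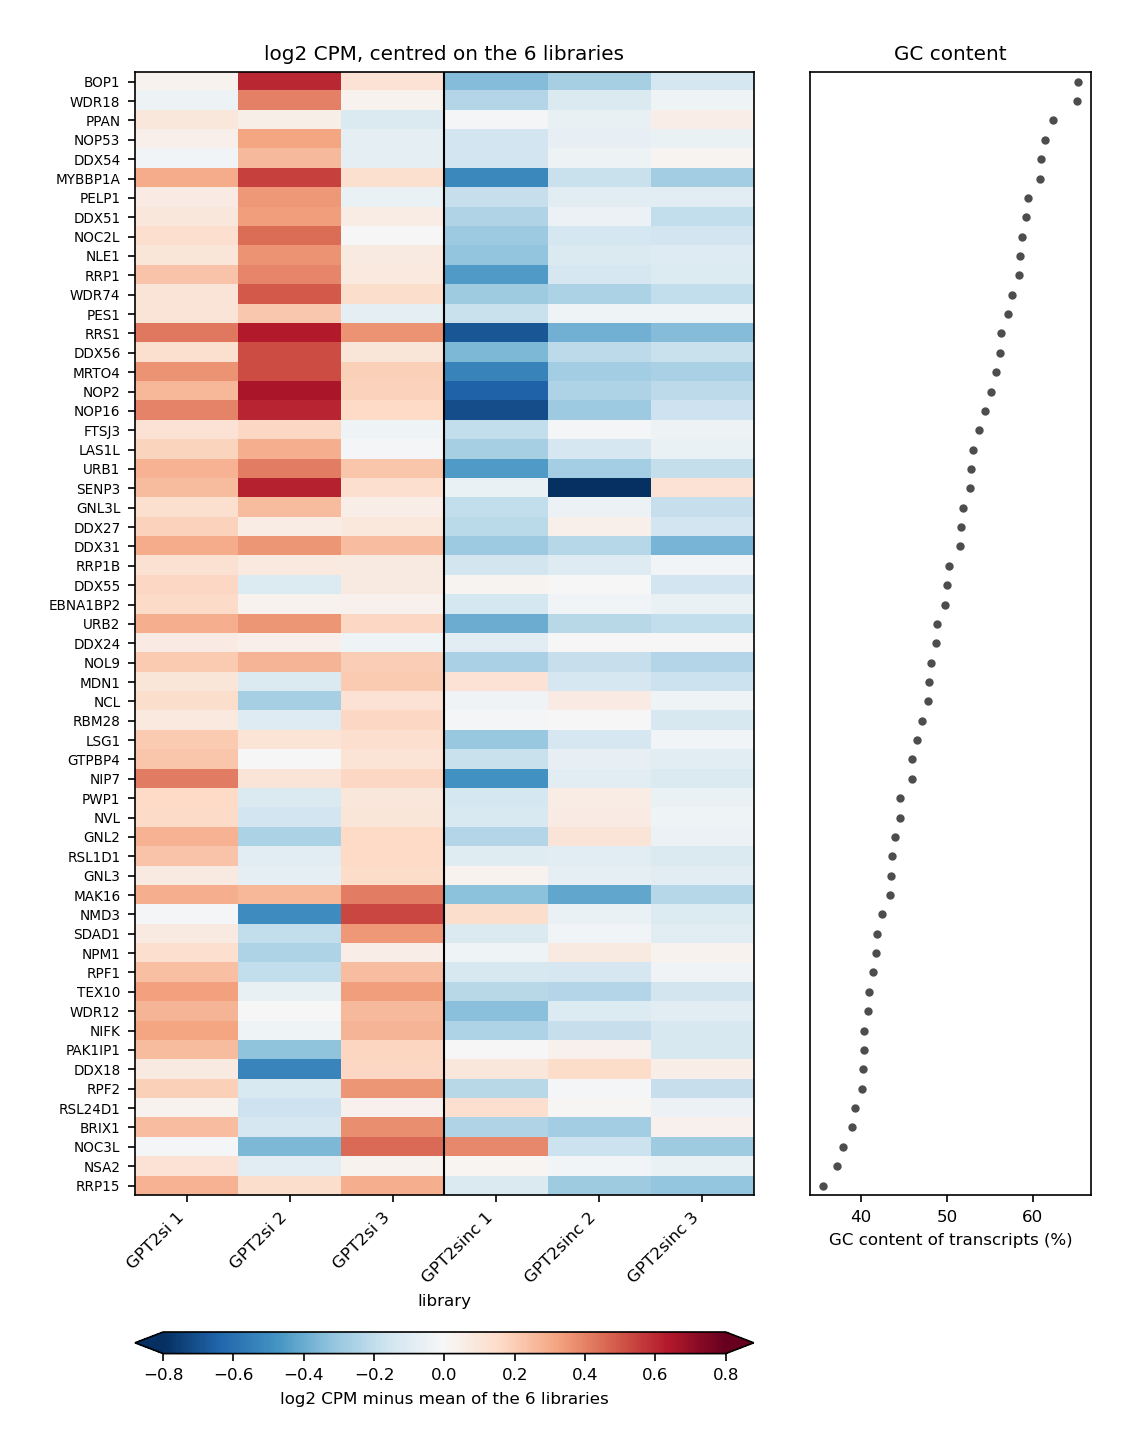
Left, log2 CPM of each of the 58 members in each library minus its mean over the 6 libraries (colour; values beyond 0.8 in size take the end colour), with members ordered from the highest transcript GC content at the top; right, that GC content in percent. GPT2si 2 passes from red at the top to blue at the bottom, while GPT2si 1 and GPT2si 3 are red over most of the lower rows and GPT2sinc 1 is blue over most of the upper rows.

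Other calls depended on which library was left out and on the scaling. The count of risen members was 0 when GPT2si 1 or any single GPT2sinc library was left out, and 6 when GPT2si 3 was. Over all genes these fits called 0 to 51 genes higher. The members' median log2 fold change ran from 0.22 without GPT2sinc 1 to 0.28 without GPT2sinc 2. In each of the 14 alternatives the log2 fold changes of the 9 risen members stayed between 0.41 and 1.00. These 9 were picked by the test on the same counts, and their groups did not overlap, so the kept direction is no separate support. With the DESeq2 Wald test 18 members rose and 0 fell, where 3.35% of all genes were higher and 2.89% lower (569 and 491 genes, compared with 98 and 143 in the main analysis). With offsets for GC content and transcript length in edgeR 28 rose and 0 fell, where 7.99% of all genes were higher and 4.46% lower.

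**Figure D5:**
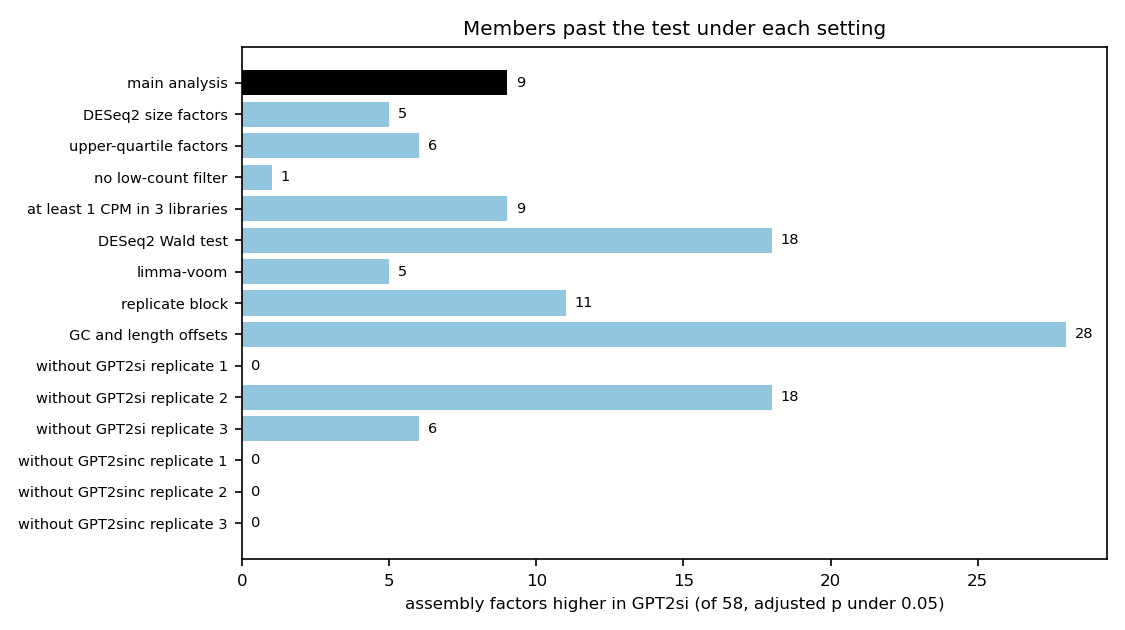
Number of the 58 assembly factors that were higher in GPT2si at an adjusted p under 0.05 in the main analysis (black) and in each alternative (blue). The main count is 9; it ranges from 0 in 4 of the fits that leave out a library to 28 with GC and length offsets.

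Other genes of large-subunit assembly were listed from general knowledge of the pathway, with earlier results of these data known. No difference between them and the 58 members was tested. Of 30 such genes 0 were called in either direction by edgeR. Before adjustment 10 lay above and 1 below at p under 0.05, where 10.3% of all genes were higher and 9.27% lower. DESeq2 called 5 higher, where it called 3.35% of all genes higher. With GC and length offsets edgeR called 10 higher, where 7.99% of all genes were higher. Their median log2 fold change was 0.19. GRWD1, a histone-binding nucleolar protein, was at 0.66 (SE 0.14, adjusted p = 0.0592), NOL12 at 0.57 (SE 0.13) and CCDC86 at 0.50 (SE 0.12). EIF6, which keeps the new large subunit from joining the small one, was at 0.48 (SE 0.13). EFL1, the GTPase that removes EIF6, was at −0.35 (SE 0.15).

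Of 51 genes for assembly of the small subunit, 6 rose and 0 fell, or 11.8%, with a median log2 fold change of 0.29. They were RRP9 (0.85, SE 0.17), NOL6 (0.67, SE 0.14), NOP56 (0.55, SE 0.10), UTP4 (0.54, SE 0.11), UTP14A (0.54, SE 0.10) and DIMT1 (0.51, SE 0.10). RRP9 and NOP56 belong to small nucleolar ribonucleoproteins and DIMT1 is a ribosomal RNA methyltransferase. No difference between the large- and small-subunit lists was tested, and both have a share of risen genes above the 0.576% of all genes. Both lists were chosen with earlier results of these data known.

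Promoters were read because the log2 fold change was above 0 in 55 of 58 members, and the E-box CACGTG, the site bound by MYC with MAX among other factors, is shown in the risen members that hold it. RefSeq promoters (GRCh38.p14, 250 bases before to 50 after the start, the first listed start of each gene) were at hand for 50 of the 58 members. The 6 letters CACGTG, which read the same on both strands, were found in 16 of the 50 windows (32%), and in 9.94% of the windows of 11739 tested genes. With every listed start counted, the shares were 34% and 12.3%. Of the 6 risen members with a window, 4 held the site. The risen members RRS1, URB2 and MAK16 had no window. The stretches around it are given 5′ to 3′ on the gene's strand, with the E-box in capitals.
DDX31, chr9:132669988-132670017, minus strand: cctcgcgcgtccCACGTGgggtcccgggcc
NOP2, chr12:6568242-6568268, minus strand: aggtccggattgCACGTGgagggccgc
MRTO4, chr1:19251807-19251836, plus strand: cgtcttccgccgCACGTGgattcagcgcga
MYBBP1A, chr17:4555340-4555369, minus strand: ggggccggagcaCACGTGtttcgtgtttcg
In DDX31 the site begins at position −22 from the start, in MRTO4 at position 15, in MYBBP1A at position 28 and in NOP2 at position 36, counting the start as 1. Among members that did not pass, PES1 and GNL2 are examples with the site close to the start.
PES1, chr22:30591880-30591909, minus strand: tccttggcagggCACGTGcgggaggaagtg
GNL2, chr1:37595917-37595946, minus strand: gtacgtcgtgcaCACGTGgtccggcgtggt
The median log2 fold change was 0.17 in the 16 members with the site and 0.28 in the 34 without, and no relation between the site and the difference was tested. The letters CCGGAAG, on either strand, read as an ETS-type motif, were in 20 of 50 windows (40%) against 18.2% of tested genes. They were in 2 of the 6 risen members with a window. The median log2 fold change was 0.32 with them and 0.17 without, also not tested. Letters for NRF1, YY1 and a CGCG element were in 4%, 8% and 2% of the 50 windows, against 2.32%, 5.15% and 0.886%. The GC box GGGCGG was in 30 of 50 (60%) against 69.2%, and in 4 of the 6 risen members, as many as held the E-box. It can lie side by side with the ETS letters, as in the 250 bases upstream of DDX31, where these motifs and the E-box are in capitals.
DDX31 upstream, chr9:132669984-132670233, minus strand: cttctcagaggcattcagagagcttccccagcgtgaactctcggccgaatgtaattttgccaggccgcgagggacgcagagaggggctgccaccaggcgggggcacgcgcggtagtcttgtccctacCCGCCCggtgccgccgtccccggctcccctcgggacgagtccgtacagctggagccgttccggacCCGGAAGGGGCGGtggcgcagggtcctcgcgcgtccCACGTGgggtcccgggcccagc
These matches are descriptions of letters in a window; binding was not measured here.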

How the data were processed

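Per the labels' protocols, poly(A) RNA was fragmented and made into dUTP strand-specific libraries. The authors deposited 1 table of raw integer counts, with Ensembl genes in rows and libraries in columns. CASAVA and StringTie are tools listed per the submitters' processing notes; no source used here states the aligner, the counting program, its strand setting, the build or the annotation. All 6 columns were matched by name and 0 were left unmapped. Groups and replicate numbers came from the sample titles; separate cultures are not stated, so p-values cover only the spread among the 6 libraries, which may be technical.

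The counts were tested with edgeR 4.0.16 (R 4.3.3; quasi-likelihood F test, TMM factors, filterByExpr, group as the only term), with Benjamini-Hochberg adjustment over 17006 genes; a gene passed at an adjusted p under 0.05. SEs were derived from the F statistic. CPM are scaled by TMM factors, as mean ± SD with n = 3 per group. A floor of 3 counts equals 0.0590 to 0.0715 CPM and covers counting error only, since amplified reads with no molecular identifiers are not separate molecules. Alternatives were DESeq2 size factors, upper-quartile factors, no low-count filter, at least 1 CPM in 3 libraries, DESeq2 1.42.0, limma-voom (limma 3.58.1), a replicate block, GC and length offsets (loess span 0.5, 98.9% of tested genes covered), and leaving out each library. Counts over 16769 genes were also simulated for GPT2si against GPT2sinc, with changes planted only in genes above 1 CPM. The test recovered 45.7% of 1.5-fold, 86.7% of 2-fold and 99.3% of 4-fold changes, and 4.15% of calls were false. The simulated counts had no GC trend in any library and no library that stood apart, so these rates may not hold for the deposited libraries. Gene positions, exon lengths, GC content and overlaps are from GENCODE 29. In that annotation 15 of the 58 members have named pseudogenes. In 9 members an opposite-strand overlap exceeds 10% of the exon bases, so the limits given for single members above also hold for others.

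The members, role groups and other lists were chosen with earlier results of these data known. The naming rule took every member past the test, the 20 with the smallest p, the 5 with the lowest log2 fold change, the 3 highest and 3 lowest per kilobase, at least 1 of each role group, other members by log2 fold change, and, of the other lists, the genes past the test and up to 4 with the smallest p; EFL1 was named after its value was seen. The 30 other large-subunit genes were matched by symbol, 3 of them through older symbols.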

Additional observations from a re-analysis of the deposited data

How the results depend on the processing

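The direction of the 9 risen members held in all 14 alternatives, and 0 members fell in any of them. The alternatives use the same counts that picked the 9, so the kept direction is no separate support. The count of risen members, 9 in the main analysis, was 5 with DESeq2 size factors, 1 with no low-count filter, 18 with the DESeq2 Wald test, 5 with limma-voom and 28 with GC and length offsets, and 0 to 18 when a library was left out; all 9 remained past the test with DESeq2, with the offsets and without GPT2si 2. The members' median of 0.26 was 0.21 with upper-quartile factors, a move of more than the spread of 0.04 between libraries. The median over all tested genes moved the same way, from −0.01 in the main analysis to −0.06 with these factors. Genes higher over the whole table, 98 in the main analysis, numbered 61 with DESeq2 size factors, 17 with no low-count filter, 569 with DESeq2, 252 with the replicate block and 1358 with the offsets, and 0 to 377 with a library left out. Genes lower, 143 in the main analysis, numbered 27, 491, 306 and 759 with no filter, DESeq2, the block and the offsets, and 1 to 459 with a library left out. The other large-subunit genes had 5 higher with DESeq2, 4 with the block, 10 with the offsets and 0 to 4 with a library left out, against 0. The small-subunit genes, 6 in the main analysis, had 2 with DESeq2 size factors, 2 with upper-quartile factors, 0 with no filter, 12 with DESeq2, 2 with limma-voom, 33 with the offsets and 0 to 11 with a library left out. The cause of these shifts was not tested. Signs turned in 11 members that did not pass, all within 0.16 of 0 in the main analysis. With upper-quartile factors PPAN was at −0.031, NSA2 at −0.0067 and NCL at −0.036; NCL was at −0.00016 with at least 1 CPM in 3 libraries, −0.0016 with limma-voom and −0.0027 with the block; with the offsets RSL24D1 was at 0.080 and NPM1 at 0.047. With a library left out, PPAN ranged from −0.033 to 0.075, DDX18 from −0.29 to 0.0096, DDX54 from −0.0037 to 0.18, NOC3L from −0.18 to 0.29, PAK1IP1 from −0.029 to 0.23, NVL from −0.0029 to 0.14, NSA2 from −0.018 to 0.078, NMD3 from −0.23 to 0.27, NPM1 from −0.12 to 0.058 and NCL from −0.072 to 0.11. The labels do not pair the libraries, so replicate numbers were not taken as pairs. Deviations of same-numbered libraries correlated at 0.09, 0.11 and −0.19, and those of libraries with unlike numbers from −0.27 to 0.25. With 3 libraries a group these values cannot decide whether libraries were paired. With the replicate block 11 members rose, BOP1, DDX56 and NOP16 among them and NOL9 not. The 3 libraries a group limit the precision: the median SE of a member was 0.12 on the log2 scale.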
